A study of Populus tremula x Populus alba with 3 samples.

Results

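Water, ions and metabolites cross the membranes of plant cells through aquaporins, ion channels and carriers, and 7 poplar genes of these kinds were followed through the lists of genes that were both hypermethylated and changed in expression when the DNA demethylase gene PtaDML10 was knocked down. The 7 genes were taken by identifier, and all 7 were found among the 577 distinct genes listed. By their Arabidopsis counterparts they are an aquaporin (TIP1;3, Potri.009G027200), 2 channels (TPC1, Potri.013G131100, and MSL10, Potri.006G222500) and 4 carriers. The carriers are ANTR1 (Potri.001G249800), UCP5 (Potri.017G047800), a gene of the nucleotide/sugar transporter family (Potri.006G278700) and one of the major facilitator superfamily (Potri.018G150700).

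The buds came from Populus tremula x Populus alba, a hybrid poplar (INRA clone 717-1B4), as wild type (WT) or as the RNA interference lines KD2 and KD5, which both target PtaDML10, a gene of the DEMETER-like DNA glycosylases. All plants had 4 weeks of long days (16 h light, 21 °C), 12 weeks of short days (8 h light, 19 °C) and 4 weeks of cold short days at 4 °C. Before bud break 15 apical buds were collected from 15 plants of each genotype, which is represented by 1 bisulfite library, so the differences from WT have no replicate check. The data were 6 lists, for promoters and transcribed regions in the CG, CHG and CHH contexts (H stands for A, C or T). The depth of sequencing, WT methylation levels and expression per library were not analysed here, so neither the knockdown of PtaDML10 nor the identity of the bud tissue could be checked.

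DEMETER-like glycosylases cut 5-methylcytosine out of DNA, and plants carry that mark in all 3 contexts. Tonoplast aquaporins pass water between the vacuole and the cytosol, channels let ions flow down their gradient, and carriers move metabolites such as phosphate and dicarboxylates across organelle membranes. An overwintering bud is closed off and relatively dry, and its growth resumes with water and solute supply.

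Of the 7 genes, 6 were listed for the transcribed region, as were 90.8% of all listed genes, and 2 for the promoter, as were 14.4%, with UCP5 in both. Features named beside a gene were read as those that a hypermethylated region overlaps. These put UCP5 at the promoter and the adjoining 5' UTR, TIP1;3 at the promoter alone, TPC1 and MSL10 at the 3' UTR and a coding segment, ANTR1 and the major facilitator gene at coding segments, and the nucleotide/sugar transporter gene outside any listed coding segment or UTR. Being in more than 1 of the 6 lists was true of 5 of the 7 genes, where 28.4% of all listed genes were. The exceptions were ANTR1 and the major facilitator gene, both listed for transcribed region CG alone, as were 258 of the 577 genes.

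Promoter gains were listed for the aquaporin and for UCP5. Gains are methylation differences in percentage points, deposited with a negative sign in lists titled as hypermethylated, and the sign was turned here. A promoter is listed as a window, of 2000 bases for 72 of the 83 promoter genes, with 1 gain for each line.

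TIP1;3, a tonoplast intrinsic protein of the aquaporin family, was listed for its promoter in CHG and CHH. In CHH the authors' deposited table gave 32.4 points as the gain in KD2 and 39.9 points in KD5. The KD5 gain was the highest of the 21 CHH promoters and the KD2 gain the third highest, against medians of 20.0 points in each line. By the smaller of its 2 gains this promoter also ranked first, the next promoter's smaller gain being 28.9 points in the authors' deposited table. It was the only entry of the 7 genes in which both gains reached 1.5 times the smallest gain of the table, which 9.52% of CHH, 13.3% of CHG and 22.4% of CG promoters did. In CHG the authors' deposited table gave 15.1 points in KD2, the smallest gain listed in that context, and 23.3 points in KD5, near the KD5 median of 21.8 points. In KD2 the same promoter was thus near the top of the CHH list and at the lower edge of the CHG list.

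The TIP1;3 window lies on chromosome 9 from 3823997 to 3825996 in the coordinates of the deposited tables, whose genome build is not given in the sources used here. It was not listed in CG, and neither was its transcribed region in any context. That pair of entries, promoter CHG and promoter CHH and nothing else, was shared by 2 of the 577 genes. The strand of TIP1;3 is not listed, but its window is written in ascending order, as were those of 17 of the 19 plus-strand genes and of 0 of the 11 minus-strand genes listed for both gene parts. The CHH promoter nearest to it over the gains of the 2 lines was that of Potri.003G068500, annotated as a transmembrane receptor family gene, for which the authors' deposited table gave 28.9 points in KD2 and 30.2 in KD5. In CHG the nearest was the peptidase M28 family gene Potri.006G153300, with 15.4 points in KD2 and 21.0 in KD5 per the authors' deposited table.

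UCP5, a mitochondrial carrier of dicarboxylates in Arabidopsis, gained CG methylation unevenly between the lines. For its promoter (chromosome 17, 3996381 to 3998380) the authors' deposited table gave 16.3 points in KD2 and 44.1 points in KD5. The KD2 gain was larger than that of 8 of the 49 CG promoters and the KD5 gain larger than that of 43 of the 49. Its KD5 gain exceeded its KD2 gain by 27.8 points, the fourth largest excess in the table, where the median excess was 6.25 points and 77.6% of promoters gained more in KD5. Each line is 1 library, so this difference has no error. The nearest CG promoter over the gains of the 2 lines was that of Potri.001G406900, with 21.9 points in KD2 and 42.4 in KD5 per the authors' deposited table. In both TIP1;3 contexts as well the gain was larger in KD5, which was true of 60.0% of CHG and 52.4% of CHH promoters.

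**Figure D1:**
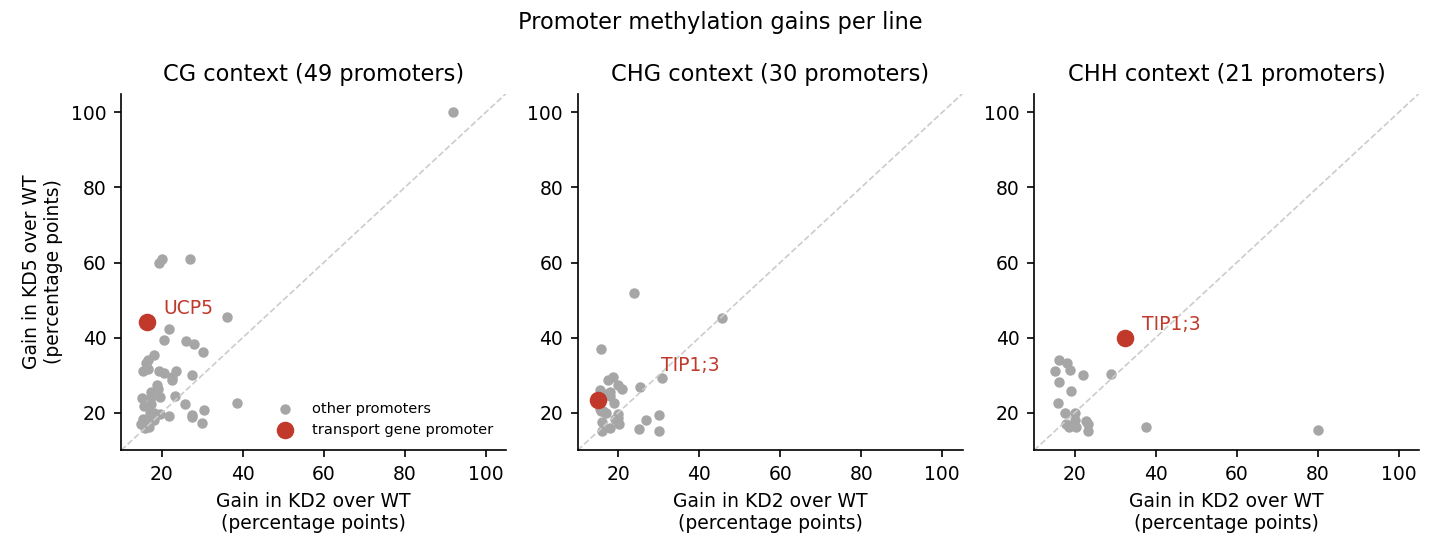
Gain of promoter methylation over WT in KD2 (horizontal axis) and in KD5 (vertical axis), in percentage points, 1 point per listed promoter and 1 panel per context; the dashed line marks equal gains. TIP1;3 lies at the top of the CHH panel in KD5 (39.9 points), and UCP5 lies far above the dashed line in CG (16.3 against 44.1 points).

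UCP5 was listed for the transcribed region too, directly after its promoter window. The gene begins at 3998381, 1 base after the window, on the plus strand, and runs to 3999870. Such contact is not particular to UCP5. The window adjoined the gene in 17 of the 19 plus-strand and 11 of the 11 minus-strand genes listed for both gene parts. In the transcribed region CG list its single feature was the 5' UTR from 3998381 to 3998514, the first 134 bases of the gene, and no coding segment was listed. A 5' UTR without a coding segment or 3' UTR was listed for 5.15% of the 388 CG genes. Promoter CG together with transcribed region CG, and no other context, was found for 8 of the 577 genes. Whether 1 region spans the boundary or 2 regions lie on either side of it was not determined. The transcribed region lists hold a further block of coordinates whose meaning is not stated, and it was not used.

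Both channel genes had a 3' UTR in CG and an internal coding segment in CHG. TPC1 is a vacuolar cation channel, known in Arabidopsis as the channel of the slow vacuolar current, and MSL10 is a channel of the plasma membrane that opens on membrane tension. In CG the 3' UTR of TPC1 (chromosome 13, 14238332 to 14239079, 748 bases) and that of MSL10 (chromosome 6, 23475026 to 23475635, 610 bases) were each the only feature listed. A 3' UTR alone was listed for 11.1% of CG genes, and the CG and CHG combination of the transcribed region for 56 of the 577 genes. In CHG the features were coding segment 7 of TPC1 (14253578 to 14253638, 61 bases) and coding segment 3 of MSL10 (23477237 to 23477530, 294 bases), numbered in the first gene model. Coding segments without a UTR were listed for 36.5% of the 178 CHG genes.

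The CG and CHG features were therefore apart in both genes, by 14.5 kb in TPC1 and by 1.60 kb in MSL10, so the 2 contexts were listed for different parts of each gene. TPC1 spans 14238332 to 14257499 on the minus strand, and with 19168 bases it was the longest of the 506 transcribed region genes with a single span, whose median was 4237 bases. MSL10 spans 23475026 to 23483653, 8628 bases, also on the minus strand. The gene models listed with TPC1 differed between the contexts as well, 4 in CG and 6 in CHG. Some TPC1 models end at 14239174 or 14244955 and so do not reach the 3' UTR listed in CG, whereas the coding segment listed in CHG belongs to all 6.

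ANTR1 and the major facilitator gene were listed for coding segments in CG. ANTR1, also named PHT4;1, is a phosphate transporter of the chloroplast thylakoid in Arabidopsis. Its coding segment 5 (chromosome 1, 25923102 to 25923311, 210 bases) was listed, centred at 31.9% of the gene span from 25924952 down to 25919477 on the minus strand. For the major facilitator gene (chromosome 18, 16837004 to 16839550, minus strand) the list held coding segments 3 and 4 (16838750 to 16838949 and 16838075 to 16838588), 200 and 514 bases long. These are neighbouring segments in a gene of 2547 bases. Coding segments alone were listed for 42.0% of the 388 CG genes, so both genes are of the most common kind.

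The nucleotide/sugar transporter gene was the only one of the 7 listed in transcribed region CHH, and it was listed in CHG as well. Its span on chromosome 6 runs from 27727348 to 27736432, 9085 bases on the minus strand. In both contexts the tables listed its 4 gene models but no coding segment and no UTR, which was so for 20.2% of CHG genes and 17.1% of CHH genes. The tables name no introns. By the reading of features used here, the regions overlap the gene but no coding segment or UTR. Where in the gene they lie was not determined. CHG with CHH in the transcribed region, and nothing else, was found for 17 of the 577 genes. It shares chromosome 6 with MSL10, 4.24 Mb away.

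**Figure D2:**
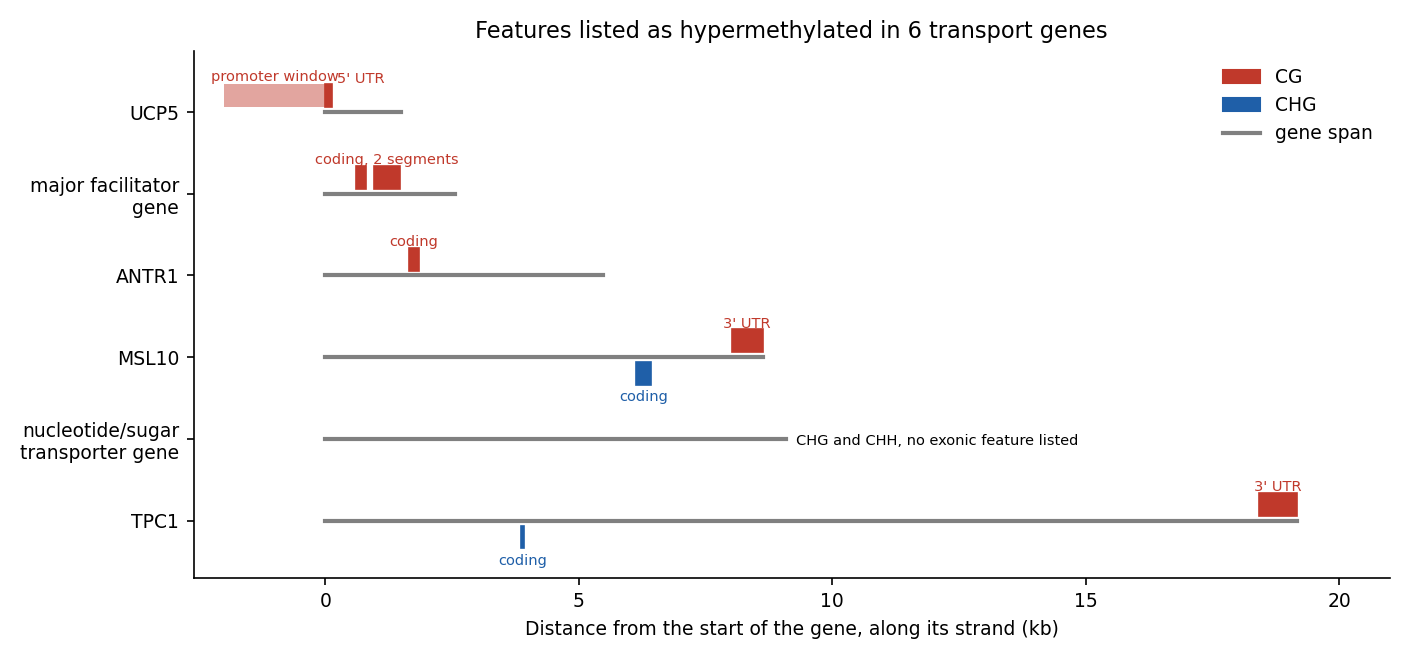
Features listed beside the 6 genes with transcribed region entries, read as those that a hypermethylated region overlaps. They are drawn from the start of each gene along its strand in kb. The grey line is the gene span, red blocks are CG features and blue blocks CHG features. Blocks show whole annotated features, and how much of each is hypermethylated is not given. In TPC1 and MSL10 the CG feature sits at the 3' end and the CHG feature inside the gene, 14.5 and 1.60 kb apart. In UCP5 the promoter window and the 5' UTR touch, and windows adjoined the gene in most genes listed for both gene parts.

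Expression was listed as 1 logFC per gene for both lines together, with a logCPM, the gene's average logarithmic CPM. The log base is not stated and was read as 2. The lists are titled as genes differentially expressed in KD2 and KD5 compared with WT, but what a positive logFC stands for is not stated. Methylation differences in the promoter lists were deposited negative although titled as hypermethylated. The sign of logFC is therefore given as deposited and not read as induction or repression. Of the 7 genes, 6 had a positive logFC (49.0% of all listed genes did) and 1, ANTR1, a negative one (51.0%). An absolute logFC of at least 1 was listed for 5 of the 7, and for 47.8% of all genes. The median of the 7 was 1.02, but no listed gene had an absolute logFC below 0.62, so a median mostly follows which sign is the more common.

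The largest values belonged to 3 genes with few reads. In the authors' deposited tables UCP5 had a logFC of 4.24 with a logCPM of 1.39, and its FDR, 3.09e-04, was the lowest of the 7 genes. Only 4 of the 577 genes had a larger absolute logFC. The major facilitator gene followed with a logFC of 2.78 at a logCPM of 0.98 (FDR 0.0300) in the authors' deposited table. TIP1;3 had 2.34 at a logCPM of 1.45 (FDR 0.0281) in the authors' deposited tables. These are 3 of only 20 listed genes with a logCPM below 1.5, whose median absolute logFC was 2.61. UCP5 and the major facilitator gene were above this median and TIP1;3 was below it.

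The other 4 genes had an absolute logFC near 1. The authors' deposited tables gave TPC1 a logFC of 0.99 (logCPM 5.65, FDR 0.00285) and MSL10 one of 0.98 (logCPM 5.77, FDR 0.00259). For these channels both the listed contexts and the expression values were thus nearly the same. Both logFC values were also close to the median absolute logFC of all 577 listed genes, 0.99. Among the 115 genes of their logCPM quintile 33.9% had a positive logFC and the median absolute logFC was 0.81. TPC1 ranked 16th and MSL10 17th there by absolute logFC. The nucleotide/sugar transporter gene had a logFC of 1.02 (logCPM 4.08, FDR 0.0184) in the authors' deposited tables. It ranked 79th of 115 in its own quintile, where 76.5% of genes had a positive logFC.

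ANTR1 was the exception in sign, with a logFC of -1.06 (logCPM 3.08, FDR 0.0315) in the authors' deposited table. In the lowest logCPM quintile, to which it belongs together with UCP5, TIP1;3 and the major facilitator gene, 69.8% of the 116 genes had a positive logFC. Its absolute value was larger than that of 3 of these 116 genes. ANTR1 also had the highest FDR of the 7.

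The logCPM is not divided by transcript length, so it orders the genes by reads and not by transcript level. How reads shared with close paralogs were counted is not given in the sources used here, and no other listed gene had the Arabidopsis locus of any of the 7.

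**Figure D3:**
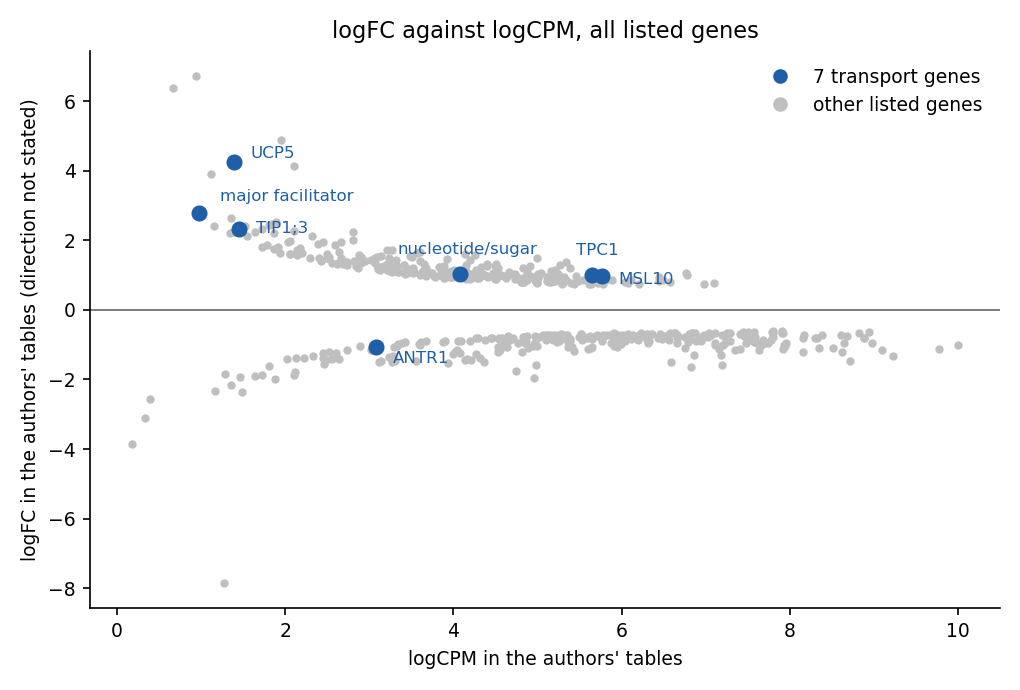
logFC (vertical axis, direction not stated) against logCPM (horizontal axis) for the 577 listed genes, with the 7 transport genes in blue. UCP5, the major facilitator gene and TIP1;3 lie at a logCPM below 1.5 with a logFC above 2, TPC1 and MSL10 lie side by side near 1, and ANTR1 is the only one of the 7 below 0.

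Further transport genes were sought by 13 annotation words, which gave 13 genes, the 7 above and 6 others. Over the 13, 8 had a positive and 5 a negative logFC, and the median was 0.97, against -0.63 over all 577 genes, of which 49.0% were positive and 51.0% negative. Without the 7 there were 2 positive and 4 negative genes and a median of -0.69. The 6 others also had more reads, with a median logCPM of 5.78 against 3.08 for the 7. Of these 6, 3 lie in the highest logCPM quintile, where 6.90% of genes had a positive logFC, and none of the 7 does. No test was made since the 7 were chosen with these results known.

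Of the 6 others the positive genes were a second major facilitator gene (Potri.001G286600), for which the authors' deposited table gave a logFC of 0.97, and the UDP-galactose transporter gene UTR6 (Potri.017G035800), with 0.82 in the same authors' deposited table. SOS1 (Potri.007G100500), the sodium proton antiporter of salt tolerance in Arabidopsis, had -1.02 in the authors' deposited table. NTT1 (Potri.003G058900), a plastid ATP/ADP carrier, had -0.74 in the authors' deposited table. Both genes annotated as VDAC1, the anion channel of the outer mitochondrial membrane, were negative in the authors' deposited tables, at -0.79 (Potri.008G194900) and -0.64 (Potri.017G078200). Among the mitochondrial transport genes the 2 VDAC1 genes and UCP5 thus had opposite signs. The VDAC1 genes were among the genes with many reads, at a logCPM of 6.76 and 7.79 in the authors' deposited tables.

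**Figure D4:**
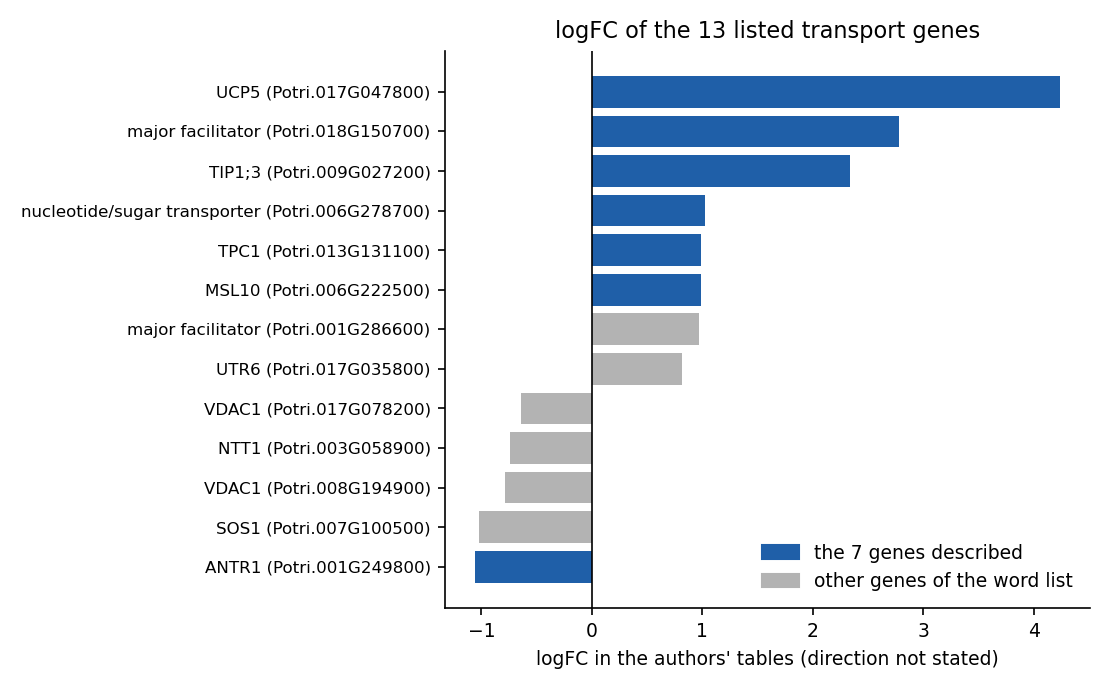
logFC (horizontal axis, direction not stated) of the 13 listed genes with transport annotation, 1 bar per gene, the 7 genes described in blue and the 6 others in grey. Values run from 4.24 for UCP5 to -1.06 for ANTR1, and 4 of the 5 bars below 0 are grey.

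Most of the 7 genes, like most listed genes, had no other listed gene nearby. For 6 of the 7 no other listed gene was within 100 kb, and only 31.4% of all listed genes had such a neighbour. UCP5 had 3 others within 100 kb, at 36.4, 88.7 and 94.3 kb, the only one of the 577 genes with so many (0.173%). Other window sizes were not tried, and the 2 farther genes lie near the edge of this one. The nearest, Potri.017G047500, was listed for promoter CHG alone, so its distance of 36.4 kb was taken to its promoter window. Its logFC in the authors' deposited table was -3.11, opposite in sign to UCP5. Of the 3 neighbours 1 was positive and 2 were negative, the positive one being the TRAF-like gene Potri.017G049100 at 94.3 kb, with 2.25 in the authors' deposited table.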

How the data were processed

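Apical buds of WT, KD2 and KD5 gave 1 whole genome bisulfite library each, sequenced on an Illumina HiSeq per the labels' protocols. Bismark and methylKit were used per the submitters' processing notes; the sources used here give no versions, coverage minimum or genome build, and depth is unknown. Values came from 6 tables of the authors' own comparisons. The authors deposited promoter methylation differences in percentage points per line, an expression logFC and logCPM (read as log2 values), and a p-value and FDR of expression, all FDR values below 0.05. The tables list only genes past the authors' thresholds for methylation and expression, so they give no share of all genes.

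Each gene was taken once over the tables. Ranks, medians, feature positions and distances between genes were computed with Python 3.11.15 and pandas 2.3.3, and counting code was checked on simulated data. For distances, genes listed for the promoter alone were placed by their promoter window. Transport genes were those whose annotation held any of 13 words, such as transporter, channel or carrier. Named were the 7 genes, the promoter nearest to each by Euclidean distance over both gains, and the outermost other transport genes (3 per sign); the VDAC1 gene Potri.017G078200 and the neighbours of UCP5 were named after their values were seen. The genes and lists were chosen with earlier results of these data known. No test between genotypes was possible with 1 library each.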

Additional observations from a re-analysis of the deposited data

How the results depend on the processing

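Of 34 alternative values for 26 results, 27 stayed within the exact 95% binomial interval of the share or median reported or within 1.5 times a count. Part of this tally carries little weight: merging windows changed nothing, and taking 1 gene model per gene left every feature count the same. The interval of the transport list share, 31.6% to 86.1%, was also wide enough to hold the 33.3% without the 7 genes. Leaving out windows that lie on another chromosome than the identifier names kept each promoter rank within that interval, and no windows overlapped within a context. At 2 times the smallest gain TIP1;3 in CHH was still the 1 entry that passed. With an absolute logFC of at least 1, 80.0% of 5 genes were positive against 85.7% of 7. Over the transport list the share was 66.7%, against 61.5%, 55.6% with 5 list words and 33.3% without the 7 genes. The share over all listed genes at that limit was not computed, so the 80.0% and 66.7% show no lean of transport genes. The list's median logFC was 0.82 with 5 list words, but -0.69 without the 7 genes, a value that is not among the 34 counted. The other 7 values, ranks by absolute logFC within the logCPM quintile, moved for all 7 genes. ANTR1 exceeded 58.4% of all listed genes but 2.59% of its quintile, whereas TPC1 exceeded 50.8% and 86.1%, and MSL10 49.4% and 85.2%. No paired analysis was possible because each genotype is 1 library. Gains just above 15 points, such as TIP1;3 in CHG in KD2, lie at the edge of the lists, and their precision cannot be stated without depth.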
